A study of Homo sapiens with 6 samples.

Results

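The collagen and laminin genes of MDA-MB-231 cells were examined as 1 group: genes of the deposited table whose symbol is COL, a number, A and a number, or LAMA, LAMB or LAMC and a number. Those analysed here were 50 genes of the 17064 in the table, and 34 of the 50 had 10 or more expected counts in at least 1 library, 24 collagens and 10 laminins. The other 16 stayed below that level in every library: COL2A1, COL5A3, COL6A6, COL8A2, COL9A3, COL10A1, COL11A1, COL14A1, COL19A1, COL20A1, COL21A1, COL22A1, COL24A1, COL25A1, COL28A1 and LAMC3. MDA-MB-231 is a human triple-negative breast cancer line, mesenchymal in shape, that was derived from a metastatic site. RNA-seq was run on 6 libraries of these cells grown in subconfluent culture. Cells transduced with the empty lentiCRISPRv2 vector gave 2 libraries (vector 1 and vector 2, the controls), cells in which CDC42BPA, the gene of the kinase MRCKα, was targeted gave 1 (MRCKα KO), cells targeted in CDC42BPB, the gene of MRCKβ, gave 1 (MRCKβ KO), and cells targeted in both gave 2 (DKO 1 and DKO 2). All 6 cultures, controls included, carried the lentiviral construct and had been drug-selected, and the knockouts were selected pools rather than picked clones, so uncut cells may remain in them. The vector libraries came from separate transductions and the DKO libraries from different guide sets. Which guide made which library is not given in the sources used here, and the p-values below measure the spread between these libraries only. MRCKα and MRCKβ are Cdc42-binding kinases that drive actomyosin contractility, and the study asked what their loss does to migration and to invasion into collagen.

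Collagens are triple helices of 3 chains, which come from the same gene or from different genes. Fibril-forming types such as I, III and V make the cables of interstitial matrix, type IV makes the sheet of the basement membrane, type VI makes beaded filaments, type VII anchors epithelium to stroma, and smaller classes coat fibrils or span the cell membrane. Laminins are cross-shaped trimers of an α, a β and a γ chain that polymerise on the cell surface through integrins and dystroglycan and hold the basement membrane to the cell. Carcinoma cells both deposit these proteins and move through them.

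Depth was even, between 10349898 and 10657857 expected counts a library. Among markers of the line, VIM was at 1532 to 2052 FPKM (fragments per kilobase of transcript, scaled to library depth) and ESR1 at 0.87 FPKM or below, and the HEK293T markers in the table summed to 0.18 FPKM or less. The targeted genes kept most of their RNA: CDC42BPA read 36.4 and 23.3 FPKM in the vector libraries and 29.4, 34.9, 28.3 and 26.1 in MRCKα KO, MRCKβ KO, DKO 1 and DKO 2, and CDC42BPB read 30.3 and 29.1 against 27.3, 25.7, 23.4 and 23.5. Small insertions and deletions need not remove a transcript, and the RNA levels leave the labels unchecked. By immunoblot, the study reported very efficient loss of the targeted proteins in its unpicked MDA-MB-231 knockout cells. The vector libraries differed from one another more than the DKO libraries did. Of all 13805 genes with 10 or more counts in any library, 9.72% were 2-fold or more apart between vector 1 and vector 2, against 9 of the 34 collagen and laminin genes, and 6.73% were as far apart between the DKO libraries, against 6 of 34.

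In level, 1 collagen and 1 laminin chain led the 34 reported genes in every library. COL8A1, a short-chain network collagen of vessel walls and corneal membrane, had 159 and 188 FPKM in the vector libraries, 196 in MRCKα KO, 158 in MRCKβ KO, with 171 and 204 in DKO. Its level overlapped between groups. Its share of the summed FPKM of the 24 reported collagens was 40.6% and 38.6% in the controls. It was 50.3% for MRCKα KO, 40.7% for MRCKβ KO, and 44.1% and 48.7% for DKO. The share was above both controls in all 4 knockout libraries, though by little in MRCKβ KO. LAMB3, the β chain of laminin-332, the laminin of epithelial anchoring, had 165 and 193 FPKM in the vector libraries, 149 in MRCKα KO, 166 in MRCKβ KO, with 171 and 212 in DKO. It made up 59.1% to 65.4% of the summed FPKM of the 10 reported laminins. Over the reported genes, collagen FPKM summed to 388 to 486 and laminin FPKM to 252 to 325. The highest collagen sum was in vector 2 and the highest laminin sum in DKO 2. The 1 matching gene that is not reported here is in none of these sums. LAMA4 and LAMA1, whose products are the α chains of vascular and embryonic laminins, were measured but low, at 0.28 to 0.97 and 0.17 to 0.42 FPKM.

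**Figure D1:**
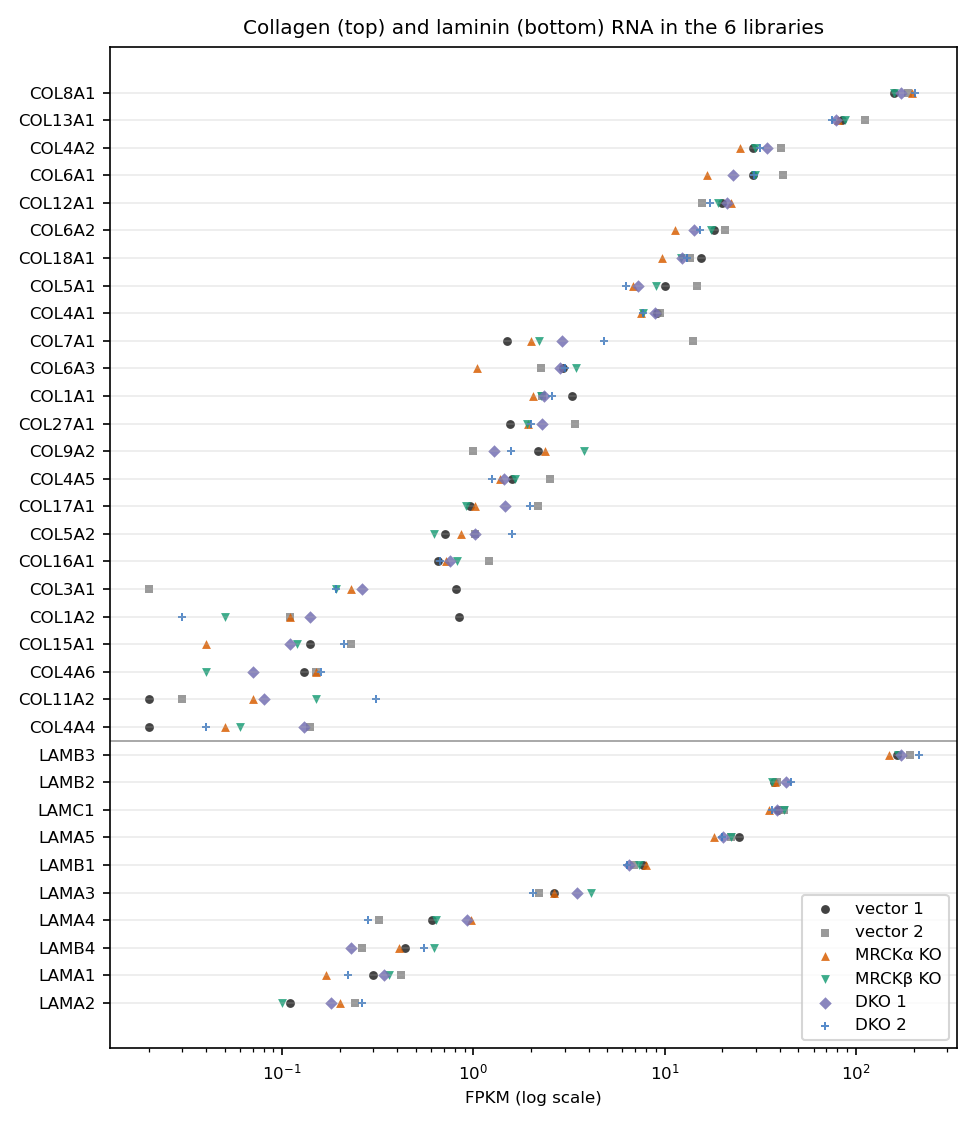
FPKM of the 24 collagen genes (top) and the 10 laminin genes (bottom) on a log axis, with 1 point for each of the 6 libraries and genes ordered by mean level. COL8A1 and LAMB3 stand above all others, most genes above 1 FPKM have their 6 points close together, and COL7A1, COL3A1, COL1A2, COL11A2 and COL4A4 are spread widely, the last 4 of these at low levels.

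The comparison with replicates in both groups asked which of these genes differed when both kinases were targeted. None passed. With edgeR (quasi-likelihood F-test) and p-values adjusted by Benjamini-Hochberg over the 13123 genes tested, 0.0% of genes (0) had an adjusted p under 0.05, and 0 of the 30 tested collagen and laminin genes did. DESeq2 called 4 genes, none of them a collagen or laminin. At an unadjusted p under 0.05 there were 313 genes, 2.39% of those tested, and 2 of the 30, COL5A1 and COL6A2. Both were lower in DKO, a direction that 1.02% of all genes had at that threshold. Leaving out 1 control moved that count, to 9 of 33 without vector 1, where 8.60% of all genes were under the threshold, and to 5 of 33 without vector 2, where 5.96% were. By sign alone, 20 of the 30 were lower and 10 higher, 66.7% lower against 50.7% of all tested genes, and the median log2 fold change was -0.18, beside 0.00 for all genes. COL1A2, COL4A4, COL4A6 and COL11A2 had too few counts to be tested. In bulk RNA, fewer cells of a kind and less RNA per cell cannot be told apart.

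**Figure D2:**
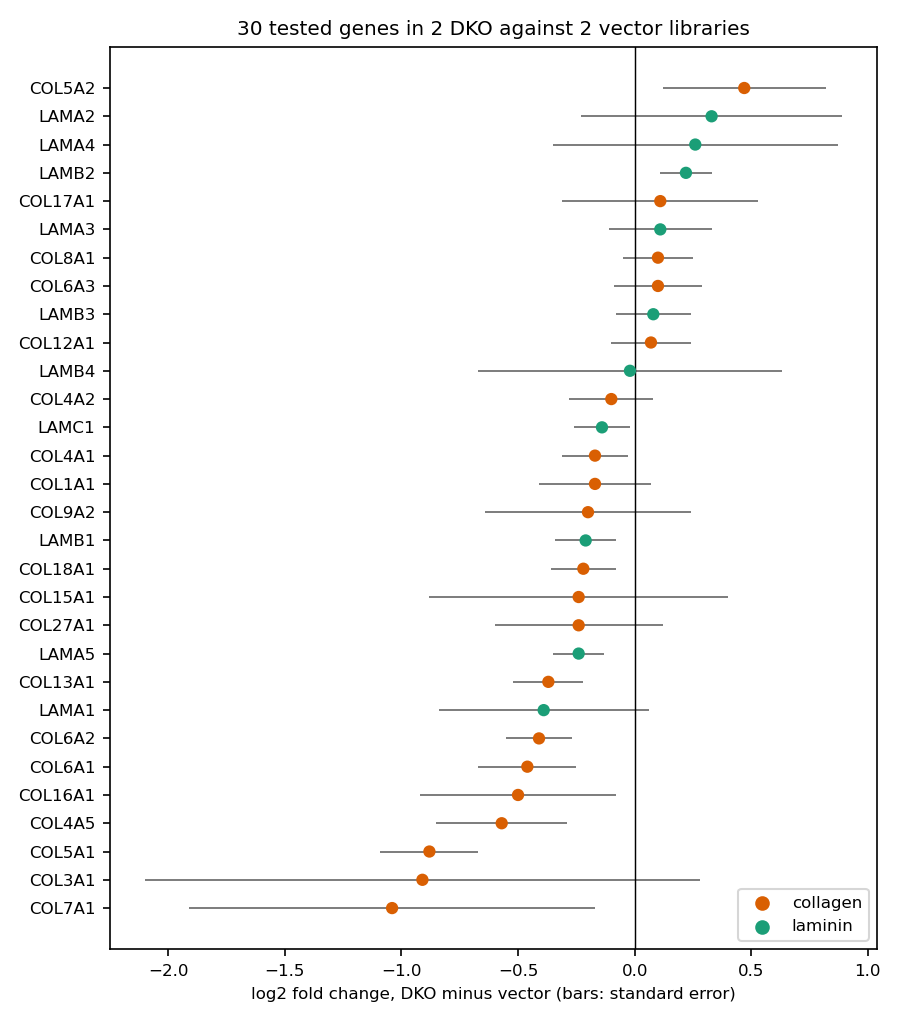
Log2 fold change, DKO minus vector, with its standard error for the 30 tested genes, from the edgeR fit of 2 DKO and 2 vector libraries. Values run from -1.04 (COL7A1, with a wide bar) to 0.47 (COL5A2), with 20 genes left of 0, and COL5A1 and COL6A2 are the only genes with an unadjusted p under 0.05.

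Type V collagen regulates the width of type I fibrils, and COL5A1 encodes its main chain, which every type V trimer of the common form contains in a pair with 1 COL5A2 chain. COL5A1 lies at chr9:134641774-134844843 on the plus strand (GENCODE v29, GRCh38). COL5A1 had 9.98 and 14.8 FPKM in the vector libraries, 6.85 in MRCKα KO, 8.99 in MRCKβ KO, with 7.29 and 6.31 in DKO. All 4 knockout libraries lay below both vector libraries. The log2 fold change in DKO was -0.88 (SE 0.21), with an unadjusted p of 0.00543 and an adjusted p of 1 by edgeR. It lay between -1.14 and -0.57 when any 1 of the 4 libraries was left out. Such fits leave 1 group with a single library, which is assumed to vary like the other group, so they are given for their values only. The partner chain COL5A2 had 0.71 and 1.02 FPKM in the controls, 0.86 in MRCKα KO, 0.62 in MRCKβ KO, with 1.02 and 1.60 in DKO, a log2 fold change of 0.47 (SE 0.35) with overlapping groups. So the level ratio of COL5A1 to COL5A2 was 14.1 and 14.5 in the controls, 14.5 in MRCKβ KO, 7.97 in MRCKα KO, and 7.15 and 3.94 in DKO. It was lower in both DKO libraries and in MRCKα KO than in either vector library, a description for which no test was made, and COL5A3 was below 10 counts throughout.

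The start-site region of COL5A1 is shown because this gene had the lowest p of the group. It is the first RefSeq window of the gene, 250 bases before to 50 after the annotated start, on GRCh38.p14 at chr9:134641553-134641852, plus strand, written 5′ to 3′. Capitals mark every match on either strand to 1 of 4 short motifs. The GC box was searched as GGGCGG. The CCAAT box was searched by the letters of its name. The TATA box was searched as TATAAA. The AP-1 site was searched as TGANTCA, where N is any base.
COL5A1: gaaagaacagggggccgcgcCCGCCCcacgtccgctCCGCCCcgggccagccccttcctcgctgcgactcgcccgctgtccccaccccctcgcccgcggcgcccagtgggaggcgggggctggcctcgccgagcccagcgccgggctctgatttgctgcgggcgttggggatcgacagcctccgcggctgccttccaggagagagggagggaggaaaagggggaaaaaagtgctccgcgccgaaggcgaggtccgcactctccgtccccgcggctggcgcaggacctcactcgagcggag
The window holds 2 GC boxes and no match to the other 3 motifs. GC boxes occur in 45% of the 35116 RefSeq windows of that length, CCAAT boxes in 34.6%, TATA boxes in 11.5% and AP-1 sites in 7.71%. Of the 34 genes, 27 have a window in the table, and the first windows of 17, 6, 4 and 1 of them hold these motifs in that order. A match describes the letters only.

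Type VI collagen is a beaded filament around cells, built of α1, α2 and α3 chains from COL6A1, COL6A2 and COL6A3. COL6A1 and COL6A2 are neighbours on chromosome 21, at chr21:45981737-46005050 and chr21:46098097-46132849, both on the plus strand, and COL6A3 is on chromosome 2. COL6A1 had 28.9 and 41.6 FPKM in the controls, 16.6 in MRCKα KO, 29.7 in MRCKβ KO, with 22.7 and 29.1 in DKO. COL6A2 had 18.2 and 20.8 in the controls, 11.3 in MRCKα KO, 17.4 in MRCKβ KO, with 14.2 and 15.3 in DKO. COL6A3 had 2.94 and 2.25 in the controls, 1.04 in MRCKα KO, 3.42 in MRCKβ KO, with 2.85 and 3.01 in DKO. The MRCKα KO library was the lowest of the 6 for all 3 chains, and the other libraries were ordered differently for each. Against the mean of the vector libraries its log2 ratio was -1.10 for COL6A1 (exact 95% interval -1.22 to -0.99), -0.81 for COL6A2 (-0.98 to -0.65) and -1.47 for COL6A3 (-1.79 to -1.15). Those intervals cover counting error only, and with 1 MRCKα KO library they compare these libraries and not the conditions. In DKO, where MRCKα was targeted too, the log2 fold changes were -0.46 (SE 0.21) for COL6A1, -0.41 (SE 0.14) for COL6A2 and 0.10 (SE 0.19) for COL6A3. By edgeR the unadjusted p was 0.0671, 0.0252 and 0.604 in that order, and every adjusted p was 1. Without vector 2 the COL6A2 value was -0.29 with an unadjusted p of 0.0779 by edgeR, and the COL6A1 value was -0.17 against -0.71 without vector 1.

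The RefSeq window of COL6A2, the other gene under the unadjusted threshold, is at chr21:46097862-46098161 on the plus strand of GRCh38.p14, with capitals as above. It holds 4 GC boxes and 1 TATA box.
COL6A2: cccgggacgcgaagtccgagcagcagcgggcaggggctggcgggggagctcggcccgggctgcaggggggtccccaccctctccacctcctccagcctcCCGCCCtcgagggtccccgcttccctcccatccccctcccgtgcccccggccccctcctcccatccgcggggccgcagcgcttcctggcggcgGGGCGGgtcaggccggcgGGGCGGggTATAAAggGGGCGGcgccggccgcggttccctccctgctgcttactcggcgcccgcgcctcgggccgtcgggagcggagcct

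**Figure D3:**
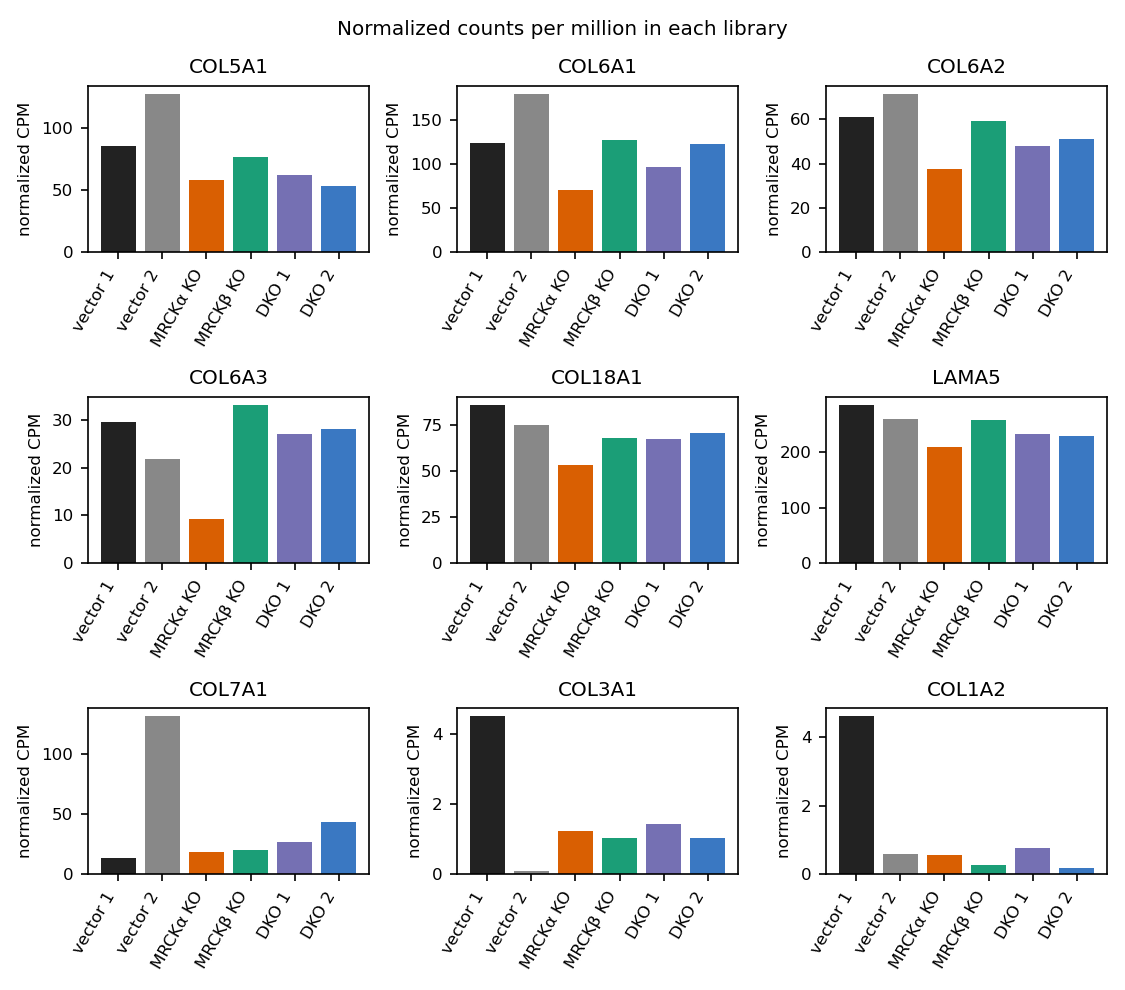
Normalized counts (CPM, library sizes scaled by TMM) of 9 genes, with 1 bar for each of the 6 libraries on axes that start at 0. COL6A1, COL6A2 and COL6A3 share a low bar in MRCKα KO, COL5A1 is below both vector libraries in all 4 knockout libraries, and COL7A1, COL3A1 and COL1A2 each have 1 vector library far above the rest.

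Type IV collagen was represented by COL4A1 and COL4A2, whose products form the common α1α1α2 trimer of basement membranes, with little COL4A5 and traces of COL4A4 and COL4A6. COL4A2 had 28.98 and 40.7 FPKM in the controls, 24.7 in MRCKα KO, 29.6 in MRCKβ KO, with 34.2 and 31.5 in DKO. COL4A1 had 9.12 and 9.45 in the controls, 7.54 in MRCKα KO, 7.68 in MRCKβ KO, with 8.94 and 7.74 in DKO. All knockout libraries were below both vector libraries for COL4A1, by little (log2 fold change in DKO -0.17, SE 0.14), while COL4A2 overlapped (-0.10, SE 0.18). The ratio of COL4A2 to COL4A1 in FPKM ran from 3.18 to 4.30, both ends of that range in vector libraries. COL4A5, a chain of kidney and other specialised basement membranes, had 1.60 and 2.51 FPKM in the controls, 1.37 in MRCKα KO, 1.65 in MRCKβ KO, with 1.44 and 1.25 in DKO. Its DKO value was -0.57 (SE 0.28), with an unadjusted p of 0.0904 by edgeR, and it was -0.23 without vector 2. COL4A6 and COL4A4 stayed at 0.16 and 0.14 FPKM or below.

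COL4A1 and COL4A2 lie head to head on chromosome 13, and their windows are shown because they are 2 readings of nearly the same stretch. The window of COL4A1 is chr13:110307108-110307407, minus strand, and that of COL4A2 is chr13:110307034-110307333, plus strand, both GRCh38.p14.
COL4A1: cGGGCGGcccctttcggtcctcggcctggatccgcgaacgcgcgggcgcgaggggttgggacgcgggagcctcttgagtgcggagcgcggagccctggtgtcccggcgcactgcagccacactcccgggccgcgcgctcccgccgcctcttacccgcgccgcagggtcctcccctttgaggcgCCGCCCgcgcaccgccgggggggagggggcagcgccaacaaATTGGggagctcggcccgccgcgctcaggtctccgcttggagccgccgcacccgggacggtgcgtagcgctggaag
COL4A2: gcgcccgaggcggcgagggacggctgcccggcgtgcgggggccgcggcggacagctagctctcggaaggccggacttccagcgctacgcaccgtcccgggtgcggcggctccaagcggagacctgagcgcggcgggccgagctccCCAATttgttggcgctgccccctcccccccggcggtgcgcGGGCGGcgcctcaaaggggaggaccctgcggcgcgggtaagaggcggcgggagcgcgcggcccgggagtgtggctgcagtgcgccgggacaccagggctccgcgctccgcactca
They share 226 bases, and 127 bases separate the annotated starts. COL4A1 shows 2 GC boxes and COL4A2 shows 1, and the 1 CCAAT match of each is the same site read from opposite strands. In GENCODE v29 the 2 genes overlap by 1422 bases, so unstranded reads from the overlap could count for either. COL4A5 and COL4A6 are also paired, with 121 shared bases and 380 between starts, and their levels differed by 7.81- to 41.2-fold. COL4A6 had only 3 to 11 expected counts a library, with 3 in MRCKβ KO where the ratio was 41.2. That range is limited by counting error.

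COL7A1, the anchoring fibril collagen of skin, had the widest spread of any member with a mean of 30 or more counts. It read 1.5 FPKM in vector 1 and 14.1 in vector 2, with 2.01 in MRCKα KO, 2.19 in MRCKβ KO, with 2.89 and 4.83 in DKO. The vector libraries were the lowest and the highest of the 6, and vector 2 was 9.45-fold above vector 1 in normalized counts. The DKO value was -1.04 (SE 0.87, unadjusted p = 0.276 by edgeR), but -1.90 without vector 1 and 1.34 without vector 2, so its direction was set by which control was kept. COL17A1, the hemidesmosomal transmembrane collagen, and COL27A1, a cartilage fibrillar collagen chosen after its values were seen, also had vector 2 at the top and vector 1 at or near the bottom. COL17A1 had 0.96 and 2.18 FPKM in the controls, 1.02 in MRCKα KO, 0.91 in MRCKβ KO, with 1.47 and 1.97 in DKO. COL27A1 had 1.55 and 3.40 in vector and 1.90 to 2.28 in the knockouts. Vector 2 was the highest library for 15 of the 34 genes, against 22.8% of all genes. The window of COL7A1 (chr3:48595280-48595579, minus strand, GRCh38.p14) is given for its unequal controls, and it holds 3 GC boxes and 1 TATA box.
COL7A1: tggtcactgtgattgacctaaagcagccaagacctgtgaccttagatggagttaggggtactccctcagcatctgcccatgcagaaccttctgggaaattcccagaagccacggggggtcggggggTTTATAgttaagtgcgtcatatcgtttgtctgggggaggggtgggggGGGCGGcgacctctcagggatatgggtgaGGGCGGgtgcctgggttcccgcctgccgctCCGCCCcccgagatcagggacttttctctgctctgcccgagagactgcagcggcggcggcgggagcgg

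The interstitial collagens I and III went the other way between controls. COL1A1 had 3.26 and 2.27 FPKM in the controls, 2.04 in MRCKα KO, 2.25 in MRCKβ KO, with 2.34 and 2.56 in DKO. COL1A2, its partner in type I collagen, had 0.84 in vector 1 and 0.11 in vector 2, then 0.11, 0.05, 0.14 and 0.03 in MRCKα KO, MRCKβ KO, DKO 1 and DKO 2. COL3A1, the type III chain, named after its values were seen, had 0.81 in vector 1 and 0.02 in vector 2, then 0.23, 0.19, 0.26 and 0.19. For both, vector 1 alone was high, with 49 and 48 expected counts, and the other 5 libraries held 8 and 15 counts at most. Fibroblast markers summed to 8.16 and 3.30 FPKM in the vector libraries and 4.47, 6.75, 9.96 and 1.31 in MRCKα KO, MRCKβ KO, DKO 1 and DKO 2, most of it PDGFRB and THY1. The defining DCN was at 0.29 FPKM in vector 1 and 0.14 or less elsewhere, LUM at 0.14 or less, and PDGFRA, FAP and POSTN at 0.08 or less. The part of these markers in the COL1A2 and COL3A1 values was not tested.

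The transmembrane, fibril-associated and multiplexin collagens were mixed. COL13A1, a transmembrane collagen at cell-matrix contacts, had 84.7 and 111 FPKM in the controls, 80.9 in MRCKα KO, 87.7 in MRCKβ KO, with 78.9 and 74.8 in DKO, a log2 fold change of -0.37 (SE 0.15) whose unadjusted p was 0.0519 by edgeR. It was -0.55 without vector 1 and -0.16 without vector 2. COL12A1, which coats type I fibrils, ranged from 15.7 to 22.3 FPKM with vector 2 lowest and MRCKα KO highest, and its DKO value was 0.07 (SE 0.17). COL18A1, the basement membrane proteoglycan that releases endostatin, had 15.5 and 13.5 FPKM in the controls, 9.70 in MRCKα KO, 12.2 in MRCKβ KO, with 12.3 and 13.0 in DKO. All 4 of its knockout libraries were below both controls, with a DKO value of -0.22 (SE 0.14), which was -0.11 without vector 1. COL16A1, fibril-associated, had 0.65 to 1.20 FPKM and a DKO value of -0.50 (SE 0.42), which was -0.82 without vector 1 and -0.09 without vector 2. COL9A2, a cartilage fibril-associated chain, had 2.17 and 0.99 FPKM in the controls, 2.36 in MRCKα KO, 3.78 in MRCKβ KO, with 1.28 and 1.58 in DKO. The MRCKβ KO library was the highest for COL9A2 and vector 2 the lowest, with the controls over 2-fold apart in normalized counts.

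**Figure D4:**
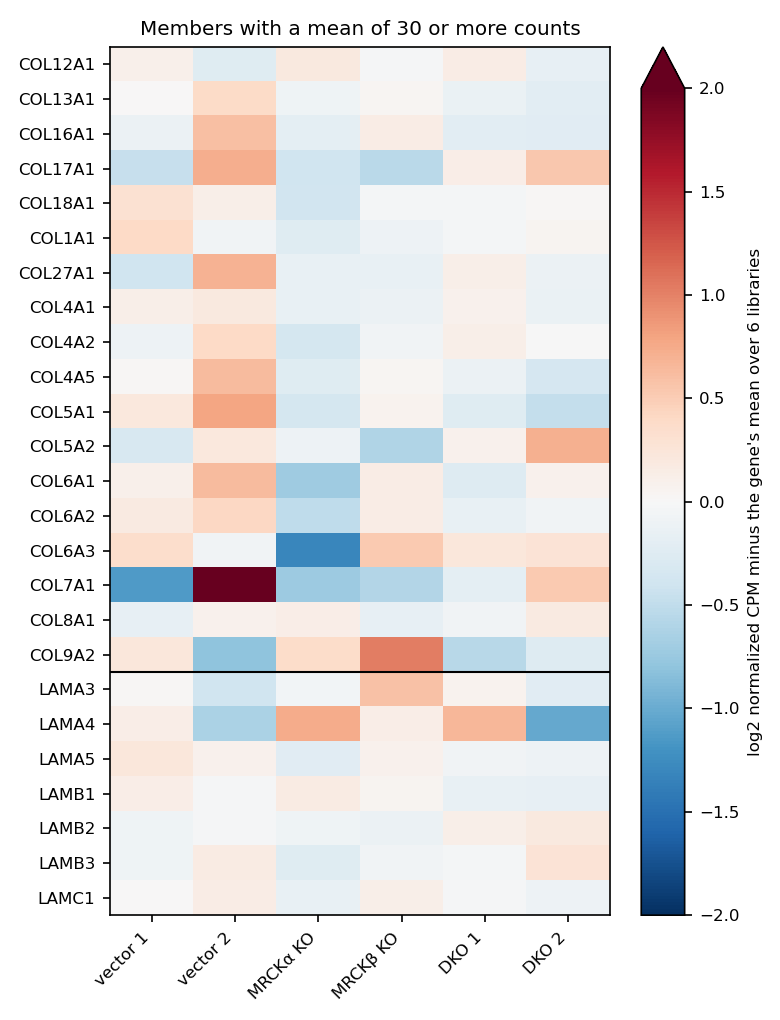
Log2 normalized CPM of the 25 genes with a mean of 30 or more counts, minus the gene's own mean over the 6 libraries (red above, blue below; collagens above the line, laminins below). The vector 2 column is mostly red, COL6A1, COL6A2 and COL6A3 are blue in MRCKα KO, and LAMB1, LAMB2, LAMA5 and LAMC1 are pale throughout.

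The abundant laminin chains LAMC1, LAMB2, LAMB1 and LAMA5 differed little between libraries, and the scarce ones differed more. LAMB3, the most abundant of the 10 reported laminins, lay between them, with 1.42-fold between its highest and lowest libraries in normalized counts. LAMC1, the γ chain of most laminins, had 39.0 and 42.3 FPKM in the controls, 35.1 in MRCKα KO, 41.9 in MRCKβ KO, with 38.4 and 36.6 in DKO. LAMB2, the β chain of laminins at synapses and in kidney, had 37.2 and 38.7 in the controls, 37.7 in MRCKα KO, 36.2 in MRCKβ KO, with 43.1 and 46.0 in DKO. By normalized CPM, LAMB2 was the 1 gene of 34 with both DKO libraries above both controls, against 14.5% of all genes. In FPKM this also held for COL11A2, at 0.08 and 0.31 in DKO and 0.02 and 0.03 in the controls. The log2 fold change of LAMB2 was 0.22 (SE 0.11), with an unadjusted p of 0.0957 by edgeR. LAMB1, the β chain used in early and widespread laminins, had 7.70 and 6.94 in the controls, 7.95 in MRCKα KO, 7.35 in MRCKβ KO, with 6.47 and 6.37 in DKO, so that the ratio of LAMB2 to LAMB1 was 4.83 and 5.57 in vector and 6.67 and 7.22 in DKO. LAMA5, the main α chain of adult epithelial basement membrane, had 24.5 and 22.3 in the controls, 18.1 in MRCKα KO, 22.3 in MRCKβ KO, with 20.2 and 20.0 in DKO, with a DKO value of -0.24 (SE 0.11) and an unadjusted p of 0.0828. The highest and lowest libraries differed by 1.22-fold for LAMC1, 1.24-fold for LAMB2, 1.26-fold for LAMB1 and 1.36-fold for LAMA5, where the median over all genes with 30 or more mean counts was 1.36 and over the 25 members 1.78.

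LAMA3 and LAMB3, chains of laminin-332, were unequal in RNA. LAMA3 had 2.65 and 2.20 FPKM in the controls, 2.65 in MRCKα KO, 4.14 in MRCKβ KO, with 3.47 and 2.05 in DKO. LAMB3 exceeded LAMA3 by 40.1- to 104-fold in every library. For LAMA3 the MRCKβ KO library was the highest, with a log2 ratio to vector of 0.76 (exact 95% interval 0.55 to 0.96). This interval covers counting error only, for 1 MRCKβ KO library. Between the controls, vector 1 over vector 2, the LAMA3 log2 ratio was 0.43 (0.14 to 0.71). DKO 2, in which MRCKβ was also targeted, was the lowest in FPKM, but vector 2 was the lowest in normalized CPM (17.4, against 19.7 in DKO 2). The low chains gave little: LAMA4 had 0.61 and 0.32 FPKM in the controls, 0.97 in MRCKα KO, 0.64 in MRCKβ KO, with 0.93 and 0.28 in DKO, its DKO libraries over 2-fold apart. LAMA1 had 0.30 and 0.42 in the controls, 0.17 in MRCKα KO, 0.36 in MRCKβ KO, with 0.34 and 0.22 in DKO. LAMA2, the muscle α chain, and LAMB4 ran from 0.10 to 0.26 and from 0.23 to 0.62 FPKM.

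The fold rule of the study, a 2-fold or greater change in FPKM for genes whose replicates were within 2-fold, was applied to all 3 comparisons as a description. It took in 6 of 26 eligible collagen and laminin genes in MRCKα KO, where 3.21% of all genes passed: COL6A1, COL6A3, COL15A1 and LAMA1 lower, and COL11A2 and LAMA4 higher. In MRCKβ KO it took in 2 of 26, COL11A2 higher and COL4A6 lower, against 2.29% of all genes. In DKO it took in 0 of 22, against 1.13%. Of the 6 genes in MRCKα KO, COL6A1 and COL6A3 had FPKM above 1, and 4 were low: COL15A1, a basement membrane collagen, had 2 expected counts in MRCKα KO and 6 to 13 in the others. COL11A2, a cartilage fibril chain, is listed by the study among the genes most raised in MRCKβ KO. It had 1 and 2 counts in the controls, 4 in MRCKα KO, 8 in MRCKβ KO, with 2 and 19 in DKO. Its log2 ratio in FPKM, which the rule used, was 1.49 in MRCKα KO and 2.58 in MRCKβ KO. In normalized counts it was 1.42 in MRCKα KO with an interval from -1.15 to 4.19, and 2.39 in MRCKβ KO with 0.33 to 4.94. COL4A6 had 6 and 9 counts in vector and 3 in MRCKβ KO, an interval from -3.77 to 0.48. Against vector 2 alone the rule took in 12 of 34 genes for MRCKα KO (7.88% of all genes), 11 of 34 for MRCKβ KO (8.19%) and 3 of 28 for DKO (3.67%). Against vector 1 alone it took in 6 of 34 (7.05%), 5 of 34 (5.06%) and 3 of 28 (3.76%). With a pseudocount of 1 FPKM the rule kept COL6A1 alone in MRCKα KO and no gene in MRCKβ KO.

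Counted by order rather than size, 12 of the 34 genes were lowest in the MRCKα KO library by normalized CPM, against 15.9% of all genes, and they included COL6A1, COL6A2, COL6A3, COL4A1, COL4A2, COL18A1, LAMA5, LAMB3 and LAMC1. For 11 genes both DKO libraries were below both controls in normalized CPM, against 14.6% of all genes, namely COL4A1, COL4A5, COL5A1, COL6A1, COL6A2, COL13A1, COL16A1, COL18A1, LAMA5, LAMB1 and LAMC1. On that scale all 4 knockout libraries were below both controls for 5 genes (COL4A1, COL5A1, COL6A2, COL18A1 and LAMA5), against 5.85% of all genes, and above both for 0, against 5.87%. In FPKM not all of these cases hold. Both DKO libraries of COL16A1 (0.75 and 0.67) were above vector 1 (0.65). For COL6A1, DKO 2 (29.13) was above vector 1 (28.87). LAMA5 was at 22.28 in MRCKβ KO beside 22.25 in vector 2. These counts share the vector libraries and moved with them. With vector 1 left out, both DKO libraries were below the remaining control for 18 genes (36.0% of all genes) and all 4 knockout libraries for 17 (25.2%). With vector 2 left out the counts were 16 (36.3%) and 8 (20.5%). The MRCKα KO library was lowest for 14 genes (19.0%) without vector 1 and 12 (20.2%) without vector 2.

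Genes that make, bind or sense these proteins were read from the same fit. In that fit 2.39% of all tested genes had an unadjusted p under 0.05 by edgeR, and 50.7% were lower in DKO. The lists are short, so 0 or 1 gene under that threshold does not set a list apart from that share. Of 34 genes for collagen folding, modification and crosslinking, 31 were tested and none had an adjusted p under 0.05 by edgeR, and 22 were lower and 9 higher, with a median log2 fold change of -0.12. P4HA1, a catalytic chain of prolyl 4-hydroxylase, had 29.4 and 30.1 FPKM in the controls, 23.2 in MRCKα KO, 35.4 in MRCKβ KO, with 24.5 and 21.1 in DKO, and at -0.40 (SE 0.14) was the 1 gene of the list with an unadjusted p under 0.05 (0.0258). The crosslinking enzyme LOXL2 stood at 92.6 to 129 FPKM with a DKO value of -0.26 (SE 0.14). The more abundant P4HB and PPIB had DKO values of -0.08 (SE 0.17) and -0.12 (SE 0.12). Of 19 basement membrane and matrix partners, 12 were tested and 0 had an unadjusted p under 0.05 by edgeR. There were 5 higher and 7 lower, with a median of -0.18. Fibronectin (FN1) had 38.1 and 20.1 FPKM in the controls, 29.99 in MRCKα KO, 39.6 in MRCKβ KO, with 32.8 and 45.7 in DKO. Its DKO value was 0.40 (SE 0.31), and those of the abundant TINAGL1 and THBS1 were -0.32 (SE 0.15) and -0.25 (SE 0.22). Of 17 receptors, 15 were tested, 7 higher and 8 lower with a median of -0.06 and no adjusted p under 0.05. ITGB4, the β chain of the laminin-332 receptor, had 7.15 and 3.55 FPKM in the controls, 2.62 in MRCKα KO, 7.23 in MRCKβ KO, with 2.94 and 2.20 in DKO. Both DKO libraries and MRCKα KO were below both controls for ITGB4 (DKO value -1.07, SE 0.36, unadjusted p = 0.0226 by edgeR), while its controls were themselves 2-fold apart and MRCKβ KO was just above the higher of them. The main integrin chains ITGA3 and ITGB1 had DKO values of -0.22 (SE 0.13) and -0.16 (SE 0.17). RPSA, the most abundant gene of the receptor list, had 0.01 (SE 0.24).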

How the data were processed

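RNA was measured by RNA-seq in 6 libraries of human MDA-MB-231 cells. The submitters' processing notes name HISAT, Bowtie2 and RSEM, and the build GRCh38.p11. The authors deposited RSEM expected counts and FPKM per gene, and nothing in the sources used here gives strand. Expected counts were rounded and tested with edgeR 4.0.16 in R 4.3.3 (quasi-likelihood, filterByExpr, TMM, Benjamini-Hochberg over all genes tested), 2 DKO against 2 vector libraries. Single knockouts have 1 library each and got no test, only log2 ratios to the vector mean with exact 95% intervals. The deposited FPKM served for levels, ratios between genes and the 2-fold rule. The collagen and laminin genes and the other gene lists were chosen with earlier results of these data known. 1 gene that the symbol rule also matches is not reported here and is left out of every count of collagen and laminin genes, though not of the fits. The text names the laminins, the 12 most abundant collagens, genes past any threshold, the 5 with the largest rise and fall in DKO and the 5 widest spreads (the last 3 sets among genes with a mean of at least 30 counts), chain partners and COL11A2. Positions are from GENCODE v29 and start-site windows from RefSeq GRCh38.p14. Alternatives were DESeq2 1.42.0, limma 3.58.1 on log2 FPKM with a pseudocount of 0.1 or 1, other normalizations and filters, a replicate block and each library left out. The fitting script was tested on simulated counts. COL18A1, COL4A1, COL4A2, LAMA4, LAMA5 and LAMB1 overlap a protein-coding gene on the opposite strand in GENCODE v29. Overlaps with other kinds of gene were not searched.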

Additional observations from a re-analysis of the deposited data

How the results depend on the processing

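No adjusted p of a collagen or laminin gene passed 0.05 under any alternative run, and the median log2 fold change in DKO stayed between -0.19 and -0.10. Over all genes, DESeq2 called 4 and the replicate block 5, against 0, and leaving out 1 library gave 0 to 5 (1 without vector 1, 5 without DKO 1). Collagen and laminin genes with an unadjusted p under 0.05 numbered 2 (2.39% of all genes), but 5 by DESeq2 (1.28%), 4 with the replicate block (6.07%) and 2 to 9 with 1 library left out: 9 without vector 1 (8.60%), 5 without vector 2 (5.96%), 3 without DKO 1 (2.50%) and 2 without DKO 2 (1.00%). Fits that leave a group with 1 library assume that it varies like the other group. Whether the replicate numbers mark a shared batch or pairing is not given in the sources used here. The correlation of same-number deviations was 0.359 across genes (2 pairs), and what it reflects was not tested. The block changed no call of a collagen or laminin gene at an adjusted p under 0.05. The fold rule took in 6 genes in MRCKα KO, but 3 with a pseudocount of 0.1 (2.20% of all genes), 1 with a pseudocount of 1 (0.361%), 2 with a mean of at least 1 FPKM (1.44%) and 6 to 12 with 1 vector library left out. In MRCKβ KO it took in 2, but 1, 0 and 0 in those settings (1.35%, 0.0882% and 0.828%), 6 without the replicate filter (4.37%) and 5 to 11 with 1 vector library left out. In DKO it took in 0, but 3 without the replicate filter (3.56%) and 1 to 3 with 1 library left out. Chosen after seeing the data, the counts of genes with both DKO libraries below the controls (11) were 16 to 18, those with all knockout libraries below (5) 8 to 17, and those lowest in MRCKα KO (12) 12 to 14, with 1 vector library left out. Of 28 named genes tested, 14 kept their sign in every fit and 14 changed it when 1 library was left out, with these lowest and highest log2 fold changes: COL1A1 -0.39 and 0.09, COL4A2 -0.33 and 0.16, COL6A3 -0.10 and 0.34, COL7A1 -1.90 and 1.34, COL8A1 -0.03 and 0.22, COL9A2 -0.63 and 0.41, COL12A1 -0.10 and 0.26, COL15A1 -0.81 and 0.17, COL17A1 -0.37 and 0.82, LAMA2 -0.14 and 1.03, LAMA3 -0.09 and 0.34, LAMA4 -0.81 and 0.86, LAMB3 -0.08 and 0.22, and LAMB4 -0.80 and 0.48. Among those that kept it, these moved by over 1.5 times: COL4A1 (-0.28 to -0.07), COL4A5 (-0.84 to -0.23), COL5A1 (-1.14 to -0.57), COL5A2 (0.12 to 0.76), COL6A1 (-0.71 to -0.17), COL13A1 (-0.55 to -0.16), COL16A1 (-0.82 to -0.09), COL18A1 (-0.31 to -0.11), LAMA1 (-0.74 to -0.11), LAMB1 (-0.28 to -0.13) and LAMC1 (-0.20 to -0.07). None of the 242 values under the other alternatives reversed direction, though LAMB4 (-0.02 in the main fit) rounded to 0 when scaled by library size only. The cause of these changes was not tested. With 9 of the 34 genes under a mean of 30 counts, ratios of the low chains are limited by counting error, and with 2 libraries a group the spread is set by few values.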
